A study of Mus musculus with 4 samples.

Results

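The genes of the DNA replication origin and fork were examined as a group of 49 members out of the 23552 genes in the deposited expression table, which is labelled batch 2. They were chosen by name, as subunits or direct partners of the machinery that licenses origins and copies DNA, and each was found in the table by its Ensembl identifier through GENCODE M21 (mm10). They lie on 17 chromosomes, with 9 on chromosome 5. RNA-Seq had been performed on c-Kit+ leukemic cells enriched from the bone marrow of moribund C57BL/6 mice in which MLL-AF9 had induced acute myeloid leukemia (AML). The 2 control libraries (replicates 3 and 4) came from cells overexpressing eGFP (genotype label control-eGFP), and the 2 SUV-OE libraries (replicates 2 and 3) from cells overexpressing Suv39h1 together with eGFP. Suv39h1 is a methyltransferase that places di- and tri-methyl marks on lysine 9 of histone H3. Both groups thus share the MLL-AF9 fusion, the eGFP vector, the strain and the moribund end point, and the labels give no age. In the study's methods the MLL-AF9 cells had been passaged through mice before transduction and were then transplanted into sublethally irradiated recipients, so that host blood cells could remain in the marrow. The labels do not say whether each library came from a different mouse or a pool, nor what the batch 2 label separates these libraries from. The error estimates cover the spread between these libraries only.

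Replication begins when the origin recognition complex (ORC) marks an origin, CDC6 and CDT1 load the ring-shaped MCM2-7 helicase there, and geminin blocks reloading by binding CDT1. In S phase the kinase CDC7, with its activator DBF4, and the cyclin-dependent kinases fire the origin as CDC45 and the GINS complex join MCM2-7. Polymerase alpha with primase then lays primers, polymerases delta and epsilon extend them with the sliding clamp PCNA, which RFC loads, RPA covers single-stranded DNA, FEN1 and LIG1 process Okazaki fragments, and CAF-1 places histones on the new DNA. Many of these genes are textbook targets of E2F transcription factors, whose activity rises at the G1/S transition.

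The start regions of the members with the lowest and highest fold changes are shown first, because members that shift together can be compared there for shared E2F-type letters. The windows hold 250 bases before and 50 after a gene's start, in RefSeq annotation of GRCm38.p6 (mm10), and 40 of the 49 genes had one in the table used, with 49 windows in all. No entry was listed for Gins1, Gins2, Gins4, Gmnn, Mcm4, Pole, Prim2, Rfc2 and Tipin. Among the genes with a window, Mcm7, Fen1 and Rfc3 had the lowest log2 fold changes and Pold3 and Cdc7 the highest. Capitals mark the E2F-type letters TTTCCCGC, TTTCGCGC, TTTGCCGC or TTTGGCGC on either strand, and each sequence runs 5′ to 3′ on the gene's strand.
Mcm7, chr5:138171834-138172133, minus strand: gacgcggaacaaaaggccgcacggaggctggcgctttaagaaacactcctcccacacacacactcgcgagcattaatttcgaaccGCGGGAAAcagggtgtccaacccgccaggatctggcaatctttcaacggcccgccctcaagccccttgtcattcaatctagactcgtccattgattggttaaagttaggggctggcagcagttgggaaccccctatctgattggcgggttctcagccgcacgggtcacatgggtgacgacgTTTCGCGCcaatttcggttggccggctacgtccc
Fen1, chr19:10204344-10204643, minus strand: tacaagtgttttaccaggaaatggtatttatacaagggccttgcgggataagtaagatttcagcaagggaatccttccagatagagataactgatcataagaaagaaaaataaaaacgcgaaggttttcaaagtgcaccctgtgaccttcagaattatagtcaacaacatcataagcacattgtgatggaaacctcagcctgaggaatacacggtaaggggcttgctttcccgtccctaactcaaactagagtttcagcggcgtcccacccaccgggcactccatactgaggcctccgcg
Rfc3, chr5:151651159-151651458, minus strand: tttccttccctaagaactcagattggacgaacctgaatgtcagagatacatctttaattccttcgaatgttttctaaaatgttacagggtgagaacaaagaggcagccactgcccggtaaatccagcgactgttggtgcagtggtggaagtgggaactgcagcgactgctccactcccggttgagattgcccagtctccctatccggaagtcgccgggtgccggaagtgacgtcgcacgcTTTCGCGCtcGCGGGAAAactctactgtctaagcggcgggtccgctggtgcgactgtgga
Pold3, chr7:100121453-100121752, minus strand: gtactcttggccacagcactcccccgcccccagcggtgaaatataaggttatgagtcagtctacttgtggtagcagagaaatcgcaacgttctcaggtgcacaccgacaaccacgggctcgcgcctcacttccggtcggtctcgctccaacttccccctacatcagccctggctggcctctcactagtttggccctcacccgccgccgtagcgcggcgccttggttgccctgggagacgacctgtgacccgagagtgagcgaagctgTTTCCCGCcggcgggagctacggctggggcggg
Cdc7, chr5:106964072-106964371, plus strand: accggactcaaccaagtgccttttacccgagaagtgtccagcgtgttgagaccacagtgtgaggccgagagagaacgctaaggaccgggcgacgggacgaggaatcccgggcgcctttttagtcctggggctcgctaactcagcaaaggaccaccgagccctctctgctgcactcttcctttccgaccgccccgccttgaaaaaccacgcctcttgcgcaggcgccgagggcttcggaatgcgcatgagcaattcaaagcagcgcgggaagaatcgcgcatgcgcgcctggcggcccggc
The Mcm7 window held these letters at bases 86 to 93 and 267 to 274, counted from 1 at the 5′ end of the window. In Rfc3 they stood at bases 241 to 248 and again up to base 258, and in Pold3 at bases 268 to 275. The printed windows of Fen1 and Cdc7 held none of them. The Fen1 window follows the RefSeq start and lies wholly upstream of the GENCODE gene, whose 5′ end is at base 10204169. Over all 49 windows of replication genes, 16 (32.7%) held an E2F-type match, against 475 of 11645 windows of all genes tested (4.08%) and 744 of 32851 windows in the whole table (2.26%). For a list of G2 and mitosis genes, 1 of 21 windows held a match (4.76%). The TTTGAA or TTCGAA letters of the CHR element, known from genes expressed in G2 and mitosis, stood in 10 of 49 windows of replication genes (20.4%), in 16 of 21 of the mitosis list (76.2%) and in 14.1% of windows of all genes tested, with both strands searched. The letters CCAAT stood in 51.0% of windows of replication genes and 38.1% of those of all genes tested, and the GC box GGGCGG in 73.5% and 61.4%. In the mitosis list these shares were 81.0% and 85.7%. Each motif was counted by itself, so that matches of different motifs can overlap. The 16 members with an E2F-type match had a median log2 fold change of -0.32 in SUV-OE, and the 24 members with a window and no match had -0.37. Of the 16, 16 were lower, and of the 24, 23 were. These are matches of letters, not measured binding, and the windows of 1 gene can overlap.

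The deposited unit was FPKM, a fragment count scaled for the length of the gene and the size of the library. The libraries still differed in summed FPKM over all genes tested, with 355481 and 413674 in control against 339495 and 371611 in SUV-OE. The reads recovered from the FPKM ranged from 20085719 to 23561089 per library, and single members had from 40 to 14530 reads in a library. Suv39h1, the check of the labels, stood at 12.4 FPKM in both controls and at 75.3 and 81.2 in SUV-OE. Of the leukemic progenitor markers listed, 12 of 12 were expressed at a mean FPKM of 0.5 or more, and 7 of the 12 had a positive log2 fold change, including Kit with 20.4 and 19.2 in control against 28.6 and 25.4 in SUV-OE (log2 fold change 0.43, limma adjusted p = 0.160). Their summed FPKM was 3183 and 3245 in control against 2751 and 3417 in SUV-OE. For the test, log2(FPKM + 1) was compared between groups with limma for the 13736 genes whose mean FPKM reached 0.5, among them 49 of the 49 members. Differences on this scale are smaller than those in FPKM for a gene such as Fen1, whose level was near 1.

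Replication genes had lower FPKM in SUV-OE almost throughout, by a small amount each. Of the 49 genes, 48 had a negative log2 fold change, where 53.0% of all genes tested did, and Cdc7 was the exception. The median log2 fold change was -0.36 (range -0.67 to 0.20), against -0.02 for all genes tested, and the median FPKM of a member in SUV-OE was 76.0% of that in control. Both SUV-OE libraries lay below both control libraries in 38 members, where 28.4% of all genes tested had this pattern, both lay above in 1, where 25.4% did, and the groups overlapped in 10. The change was larger than both within-group gaps in 31 of the 49 members, against 41.2% of all genes tested.

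No member passed the test. None was a differentially expressed gene (DEG, limma adjusted p under 0.05 and absolute log2 fold change of at least 1), where 1.22% of all genes tested were (0.408% lower in SUV-OE and 0.815% higher). At any fold change 0 members had a limma adjusted p under 0.05, where 1.29% of all genes did (0.43% lower and 0.859% higher), and 1 member, Gmnn, had one under 0.1, where 4.85% did. At an unadjusted p under 0.05, 21 members were lower, where 10.4% of all genes tested were, and 0 were higher, where 10.3% were. With limma-voom on the recovered reads, 0 members had an adjusted p under 0.05, where 7.07% of the 14292 genes tested did, 3 had one under 0.1, where 12.0% did, and 45 were lower, where 41.5% of genes were. The median of all genes lay 0.11 higher in that fit, and the members' median lay 0.37 below it, against 0.34 in the FPKM. With SUV-OE replicate 2 left out, the members' median log2 fold change was -0.32 and 45 were lower, where 52.8% of all genes tested were. Without SUV-OE replicate 3 these values were -0.40 and 48, where 52.6% of all genes were lower. Without control replicate 3 they were -0.32 and 47 (51.7%), and without control replicate 4 they were -0.41 and 45 (51.7%). In these fits the lone library was assumed to vary like the other group. The log2 fold change of 29 of the 49 members moved by over 1.5 times or changed sign with at least 1 of the 4 libraries left out. No share over all genes is given for this count.

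**Figure D1:**
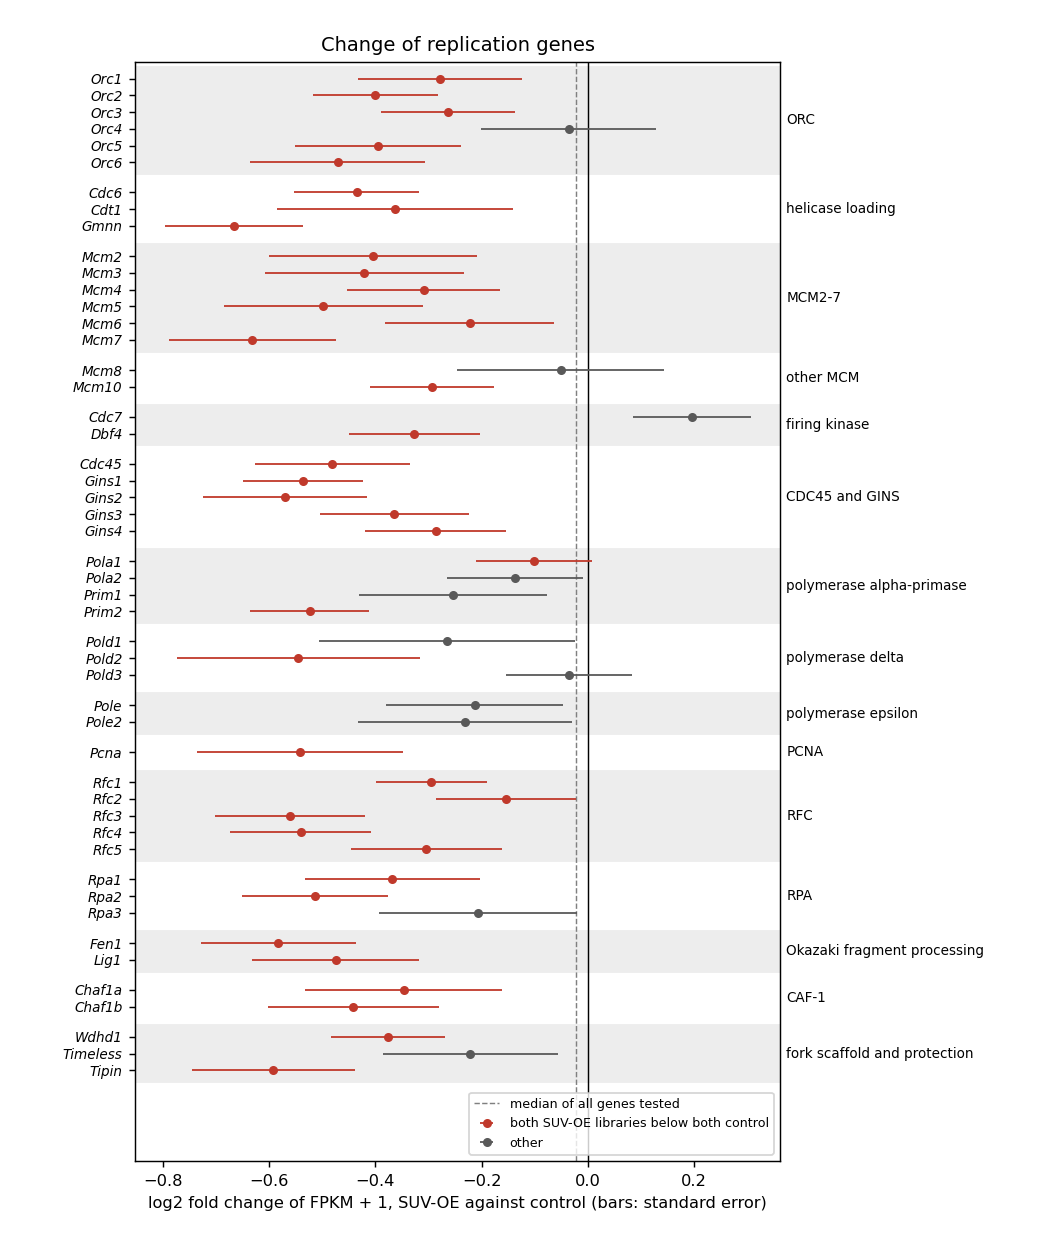
The log2 fold change of FPKM + 1 (SUV-OE against control, x axis) of each replication gene (y axis, by complex) is drawn with its standard error from limma, in red where both SUV-OE libraries lay below both control libraries. Of 49 genes, 48 lie left of 0 (47 after quantile normalization and 45 with limma-voom), and the dashed line is the median of all genes tested, -0.02.

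The SUV-OE libraries were not equal for these genes. SUV-OE replicate 2 had the lowest value of the 4 libraries in 41 members and SUV-OE replicate 3 in 5, and no share over all genes is given for these counts. Replicate 3 of SUV-OE was above replicate 2 in 44 of 49 members, with a median log2 difference of 0.15, where 50.2% of all genes tested were above and their median difference was 0.00. The median FPKM over the members was 29.8 and 30.3 in control against 22.3 and 25.3 in SUV-OE. In control, replicate 3 was the higher library in 28 members and replicate 4 in 21, where replicate 3 was higher in 49.8% of all genes tested. The median log2 difference of control replicate 3 minus 4 was 0.01 over the members.

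**Figure D2:**
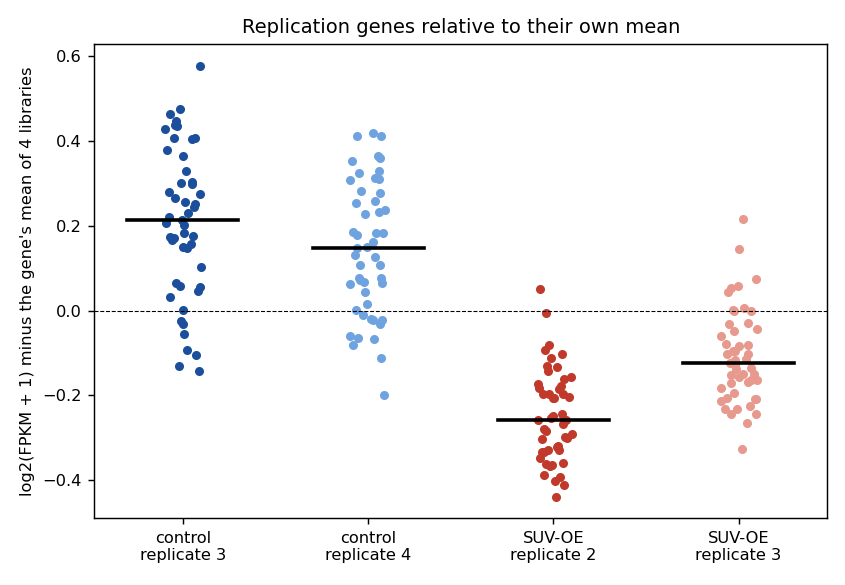
Each point is 1 replication gene in 1 library (x axis), as log2(FPKM + 1) minus that gene's mean over the 4 libraries (y axis), with a bar at the median. The medians were 0.21 and 0.15 in control against -0.26 and -0.12 in SUV-OE, and 48 of 49 genes lay below their own mean in SUV-OE replicate 2.

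The summed levels of markers of other blood cells, given here without a test, were higher in both SUV-OE libraries than in both control libraries for the neutrophil, B-lymphoid, monocyte, megakaryocyte, mast cell and endothelial lists, and overlapped for the erythroid and the T and NK cell lists. The summed FPKM of 11 neutrophil markers was 991 and 2634 in control against 6835 and 8299 in SUV-OE, and 10 of the 11 had a positive log2 fold change. Among them Ltf, the gene of lactoferrin in neutrophil granules, rose from 19.9 and 40.3 to 212 and 241 (limma adjusted p = 0.0434). The summed FPKM was 21.3 and 29.4 against 41.3 and 93.1 for B-lymphoid markers (8 of 9 tested positive), 15.8 and 141 against 105 and 73.4 for erythroid markers (11 of 11), 128 and 196 against 200.4 and 199.6 for monocyte and macrophage markers (7 of 8), 6.81 and 13.1 against 24.5 and 28.9 for megakaryocyte markers (3 of 4), and 91.3 and 114 against 182 and 171 for mast cell and basophil markers (3 of 5). Endothelial markers summed to 17.1 and 24.1 against 72.1 and 65.5, nearly all of it Pecam1, which blood cells also express and which rose from 16.7 and 23.3 to 70.3 and 64.1 (limma adjusted p = 0.0405). T and NK cell markers summed to 2.67 and 2.72 against 3.005 and 2.70, and 8 of these 10 genes stayed under an FPKM of 0.5. No other gene of the marker lists passed the test, and none was at 0 in all 4 libraries. The part of these cells in the lower replication genes was not tested, and in bulk RNA fewer cycling cells and less RNA per cell cannot be told apart.

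**Figure D3:**
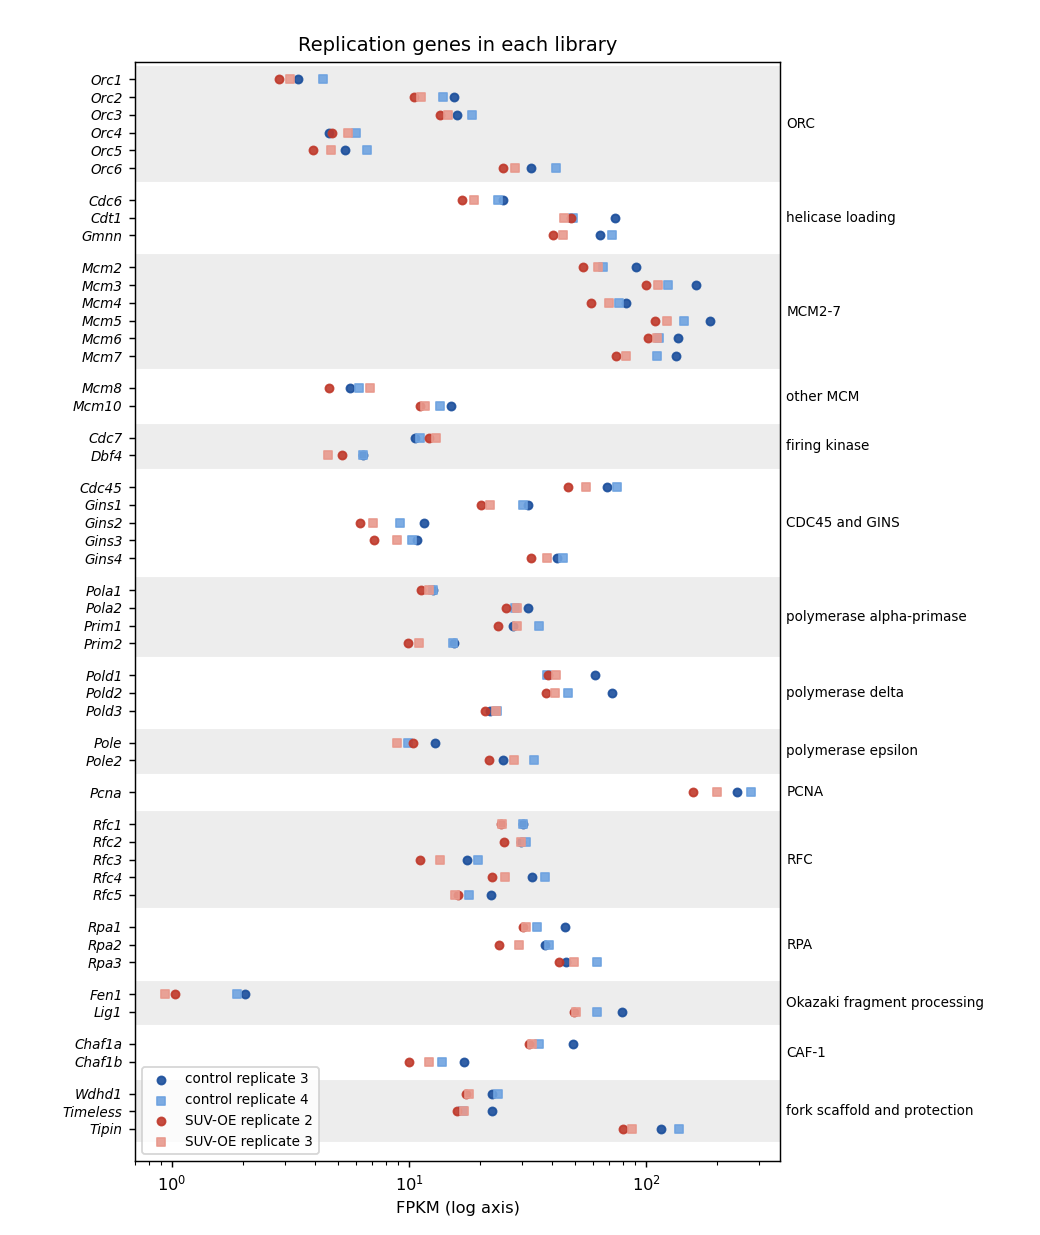
FPKM (x axis, log scale) of each replication gene (y axis, by complex) in the 2 control libraries (blue) and the 2 SUV-OE libraries (red). Levels span from 0.929 for Fen1 to 276 for Pcna, and the red points of 38 genes lie left of both blue points.

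Of the 6 ORC genes, which bind origins, 6 had lower means in SUV-OE where 53.0% of all genes tested did, and in 5 the SUV-OE libraries lay below both controls, where 28.4% did (median log2 fold change -0.34, and -0.21 without control replicate 4). Orc6, the most abundant, had FPKM values of 32.6 and 41.9 in control against 24.8 and 28.0 in SUV-OE. Both SUV-OE values lay below control (log2 fold change -0.47, standard error 0.16, limma adjusted p = 0.213). Orc1, the largest subunit, was the least abundant, with 3.40 and 4.33 in control against 2.83 and 3.15 in SUV-OE (log2 fold change -0.28, standard error 0.15). Orc4 had 4.60 and 5.98 in control against 4.71 and 5.51 in SUV-OE. Its groups overlapped (log2 fold change -0.04, standard error 0.16, limma adjusted p = 0.919), and its sign turned with limma-voom (0.058). The log2 fold changes of Orc2, Orc3 and Orc5 were -0.40, -0.26 and -0.40, each without overlap.

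Among the genes of helicase loading, Gmnn, which encodes geminin, had the lowest log2 fold change of all members on the log2(FPKM + 1) scale with all libraries kept. Without control replicate 4 it had -0.59, and Mcm7 (-0.76), Mcm5 (-0.68) and Cdt1 (-0.66) were among the members below it. Fen1 was lower than Gmnn with a pseudocount of 0.1 (-0.94 against -0.68), with limma-voom (-0.91 against -0.58) and after quantile normalization (-0.71 against -0.50). Gmnn lies at chr13:24751845-24761923, and its FPKM was 64.2 and 71.6 in control against 40.3 and 44.5 in SUV-OE, 62.4% of control on average. On the log2 scale this was a change of -0.67, with a standard error of 0.13 and a limma adjusted p of 0.0967. Cdt1, the loading factor that geminin binds, had 74.1 and 48.9 in control against 48.3 and 45.0 in SUV-OE (log2 fold change -0.36, standard error 0.22, limma adjusted p = 0.415). Control replicate 3 stood apart from the other 3 libraries in this gene. The ratio of Gmnn to Cdt1 FPKM was 0.866 and 1.46 in control against 0.835 and 0.988 in SUV-OE, so that SUV-OE replicate 3 lay between the controls. Cdc6, the other loading factor, had 25.0 and 23.8 in control against 16.7 and 18.9 in SUV-OE (log2 fold change -0.44, standard error 0.12, limma adjusted p = 0.154).

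All 6 genes of the MCM2-7 helicase had both SUV-OE libraries below both controls (28.4% of all genes tested), with a median log2 fold change of -0.41, which was -0.24 without control replicate 3, -0.62 without control replicate 4 and -0.22 after quantile normalization. Their summed FPKM was 793 and 636 in control against 499 and 562 in SUV-OE. Mcm7 was the lowest, with 134 and 111 in control against 74.5 and 82.5 in SUV-OE (log2 fold change -0.63, standard error 0.16, limma adjusted p = 0.139). Mcm5, the most abundant of them, had 187 and 144 against 109 and 123 (log2 fold change -0.50, standard error 0.19, limma adjusted p = 0.235). Mcm6 was at the other end, with 137 and 114 against 102 and 112 (log2 fold change -0.22, standard error 0.16, limma adjusted p = 0.481). Mcm2, Mcm3 and Mcm4 had log2 fold changes of -0.40, -0.42 and -0.31. The helicase is a ring with 1 copy of each subunit, and the highest subunit mRNA was 2.27 and 2.18 times the lowest in control and 2.01 and 1.97 times in SUV-OE. Mcm8, a paralog that works in recombination rather than in the replicative ring, had 5.64 and 6.12 in control against 4.61 and 6.85 in SUV-OE. Its groups overlapped (log2 fold change -0.05, standard error 0.19, limma adjusted p = 0.903), and the value was 0.036 with limma-voom. Mcm10, which helps to activate the loaded helicase, had 15.03 and 13.5 against 11.2 and 11.7 (log2 fold change -0.29, standard error 0.12, limma adjusted p = 0.252).

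The subunits of the kinase that fires origins lay on opposite sides of 0. Cdc7, the catalytic subunit, had FPKM values of 10.6 and 11.1 in control against 12.1 and 13.0 in SUV-OE (log2 fold change 0.20, standard error 0.11, limma adjusted p = 0.386). It was the 1 member with both SUV-OE libraries above both controls. Dbf4, its activating subunit, had 6.40 and 6.37 in control against 5.23 and 4.56 in SUV-OE (log2 fold change -0.33, standard error 0.12, limma adjusted p = 0.236). The Cdc7 to Dbf4 ratio was 1.65 and 1.74 in control against 2.32 and 2.85 in SUV-OE, without overlap, and neither gene passed the test.

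CDC45 and the GINS subunits, which complete the active helicase, were lower without overlap in 5 of 5 genes (28.4% of all genes tested), with a median log2 fold change of -0.48. Gins1 had FPKM values of 31.7 and 30.3 in control against 20.1 and 22.0 in SUV-OE (log2 fold change -0.54, standard error 0.11, limma adjusted p = 0.107). Cdc45 had 68.5 and 75.5 against 46.9 and 56.0 (log2 fold change -0.48, standard error 0.15, limma adjusted p = 0.178). Gins2 had 11.6 and 9.17 against 6.22 and 7.06 (log2 fold change -0.57, standard error 0.15, limma adjusted p = 0.154), but 67.3% of its exon bases are shared with exons of Gse1 on the opposite strand, which had 15.4 and 9.42 against 11.6 and 11.8. Gins4 had the smallest difference of these genes, with 42.1 and 44.6 against 32.6 and 38.4 (log2 fold change -0.29, standard error 0.13, limma adjusted p = 0.308). Gins3 had a log2 fold change of -0.36.

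Among the polymerases, 9 of 9 genes were lower in SUV-OE, and 3 of the 9 had groups without overlap, a share close to the 28.4% of all genes tested with this pattern. In polymerase alpha-primase, Prim2, the large primase subunit, had 15.5 and 15.4 in control against 9.90 and 11.0 in SUV-OE (log2 fold change -0.52, standard error 0.11, limma adjusted p = 0.110). The other primase subunit, Prim1, had 27.3 and 35.4 against 23.7 and 28.4, with overlap (log2 fold change -0.25, standard error 0.18). Pola1, the catalytic subunit, had 12.7 and 12.6 against 11.3 and 12.2 (log2 fold change -0.10, standard error 0.11, limma adjusted p = 0.641), and Pola2 had a log2 fold change of -0.14.
In polymerase delta, the lagging-strand enzyme, Pold2 had 72.2 and 46.9 against 37.9 and 41.3 (log2 fold change -0.55, standard error 0.23, limma adjusted p = 0.270), and this was -0.24 without control replicate 3 and -0.85 without control replicate 4. Pold1, its catalytic subunit, had 61.1 and 38.3 against 38.7 and 41.5, so that both SUV-OE libraries lay between the controls (log2 fold change -0.27, standard error 0.24). Without control replicate 3 the Pold1 value was 0.066. Pold3 had 21.9 and 23.4 against 20.9 and 23.3 (log2 fold change -0.04, standard error 0.12, limma adjusted p = 0.890), and the fold change was 0.079 after quantile normalization and 0.060 with limma-voom. In polymerase epsilon, the leading-strand enzyme, Pole had 12.8 and 9.87 against 10.3 and 8.87 (log2 fold change -0.21, standard error 0.17, limma adjusted p = 0.520). Its subunit Pole2 had 24.9 and 33.6 against 21.7 and 27.6 (log2 fold change -0.23, standard error 0.20, limma adjusted p = 0.560). The groups overlapped in both genes.

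The clamp gene Pcna was the most abundant member in each of the 4 libraries, with FPKM values of 242 and 276 in control against 158 and 200 in SUV-OE. The groups did not overlap (log2 fold change -0.54, standard error 0.19, limma adjusted p = 0.219), and the pseudogene Pcna-ps2 in the same table was at 3.03 and 5.14 against 2.51 and 2.998. All 5 genes of the clamp loader RFC were lower without overlap (28.4% of all genes tested), with Rfc2 near the border. Rfc3 had 17.6 and 19.6 in control against 11.1 and 13.5 in SUV-OE (log2 fold change -0.56, standard error 0.14, limma adjusted p = 0.140). Rfc4 had 32.9 and 37.3 against 22.3 and 25.3 (log2 fold change -0.54, standard error 0.13, limma adjusted p = 0.135). Rfc2 had 29.8 and 31.2 against 25.0 and 29.8 (log2 fold change -0.15, standard error 0.13, limma adjusted p = 0.555), so that the nearest libraries of the groups almost met. Rfc1, the large subunit, and Rfc5 had log2 fold changes of -0.29 and -0.30.

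Of the genes of RPA, which coats single-stranded DNA, Rpa2 had 37.4 and 38.8 in control against 23.9 and 29.0 in SUV-OE (log2 fold change -0.51, standard error 0.14, limma adjusted p = 0.152). Rpa3 had 46.0 and 61.8 against 42.9 and 49.5, with overlap (log2 fold change -0.21, standard error 0.19, limma adjusted p = 0.569). Rpa1, the large subunit, had a log2 fold change of -0.37 without overlap. The ligase gene Lig1 had 79.1 and 62.4 against 49.8 and 50.7 (log2 fold change -0.47, standard error 0.16, limma adjusted p = 0.198). Fen1, the flap nuclease gene, had only 2.04 and 1.88 against 1.02 and 0.929, which was 49.8% of control, with 40 reads in SUV-OE replicate 3. The test gave a log2 fold change of -0.58, a standard error of 0.15 and a limma adjusted p of 0.139, and 84.2% of its exon bases overlap exons of Gm10143 and Tmem258 on the opposite strand, so that its level is uncertain.

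Of the histone chaperone CAF-1, Chaf1b had 17.0 and 13.8 in control against 9.995 and 12.1 in SUV-OE (log2 fold change -0.44, standard error 0.16, limma adjusted p = 0.226). Chaf1a had 49.2 and 35.3 against 32.0 and 33.1 (log2 fold change -0.35, standard error 0.19, limma adjusted p = 0.365), and shares 52.5% of its exon bases with Ubxn6. At the fork, Tipin, a partner of Timeless in fork protection, had 116 and 138 against 79.7 and 87.3 (log2 fold change -0.59, standard error 0.15, limma adjusted p = 0.144). Timeless itself had 22.3 and 16.8 against 15.9 and 17.1, with overlap (log2 fold change -0.22, standard error 0.16, limma adjusted p = 0.499). Wdhd1, which tethers polymerase alpha to the helicase, had a log2 fold change of -0.38 without overlap. Over the 15 complexes and single genes described, the median log2 fold change was below 0 in each, except that of the Cdc7 and Dbf4 pair (-0.07) with limma-voom (0.010). It was -0.54 for Pcna and -0.53 for Fen1 and Lig1, and the order of these turned with a pseudocount of 0.1 (-0.54 and -0.71), limma-voom (-0.45 and -0.64) and quantile normalization (-0.36 and -0.50), and also without SUV-OE replicate 2 (-0.37 and -0.54) or control replicate 4 (-0.45 and -0.63). Orc1, Orc2, Mcm7, Rfc2, Rfc4 and Rfc5 share from 10.7% to 29.8% of their exon bases with other genes, and without strand these reads cannot be told apart. In the 40 members with no more than 10% of exon bases shared with another gene, 39 were lower, with a median of -0.36.

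The gap between the control libraries followed base composition in these genes. Across the 49 members, Pearson's r between the GC content of the longest transcript and the log2 difference of control replicate 3 minus 4 was 0.78, and across 13692 of the genes tested it was 0.24. These are correlations across genes that share the same pair of libraries. The members with the largest gap toward replicate 3 were Pold1 (0.66), Pold2 (0.61) and Cdt1 (0.59), and those with the largest toward replicate 4 were Rpa3 (-0.42) and Pole2 (-0.42). The log2 fold change between groups had an r with GC content of -0.26 across the members and of -0.056 across the 13692 genes. In the 28 members higher in control replicate 3, 28 had a negative log2 fold change, with a median of -0.37, and in the 21 members higher in replicate 4, 20 did, with a median of -0.29.

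**Figure D4:**
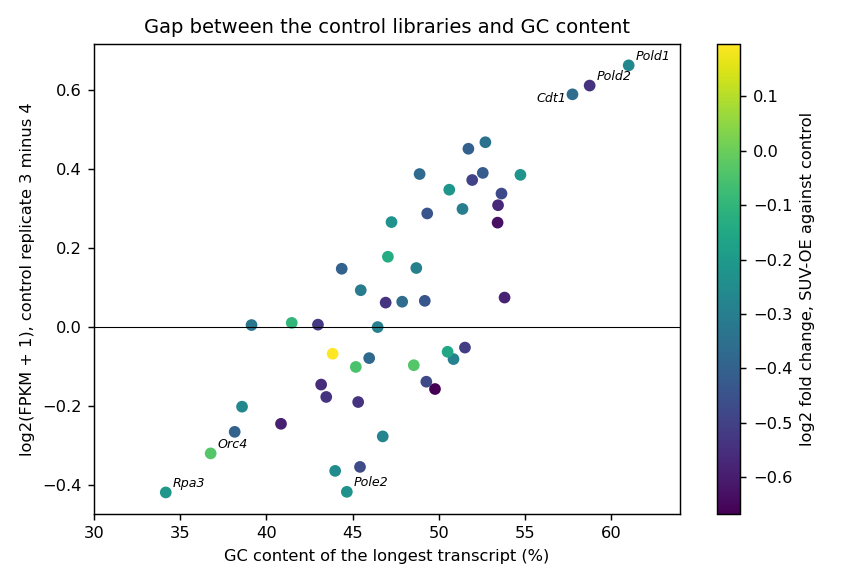
GC content of the longest GENCODE M21 transcript (x axis, percent) and the log2(FPKM + 1) of control replicate 3 minus replicate 4 (y axis) for the 49 replication genes, coloured by log2 fold change between groups. Pold1, Pold2 and Cdt1 stand at the upper right and Rpa3 at the lower left (r = 0.78 across genes).

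Genes around the same machinery were taken from further lists. Of 31 other origin and replisome genes, 27 were lower in SUV-OE and 4 higher, where 53.0% of all genes tested were lower, and the median log2 fold change was -0.26. In 19 of them both SUV-OE libraries lay below both controls, where 28.4% of all genes tested did, and 0 had a limma adjusted p under 0.05, where 1.29% did. The genes of this list with the smallest p were Rnaseh2b, a subunit of the RNase that removes RNA from DNA (14.0 and 15.3 against 9.44 and 9.78, log2 fold change -0.56, limma adjusted p = 0.0988), and the histone chaperone gene Asf1b (32.3 and 30.6 against 20.9 and 23.0, log2 fold change -0.50, limma adjusted p = 0.123). Of 24 genes of G2 and mitosis, 17 were lower and 7 higher, against the same 53.0% of all genes, the median was -0.22 and there were 0 genes with an adjusted p under 0.05. Ttk (8.87 and 8.95 against 6.12 and 6.20, log2 fold change -0.47, limma adjusted p = 0.124) and Ccnb1 (23.8 and 23.2 against 17.3 and 16.2, log2 fold change -0.46, limma adjusted p = 0.125), which encode a spindle checkpoint kinase and cyclin B1, had the smallest p in it. Mki67, the gene of the proliferation antigen Ki-67, had 38.4 and 43.7 in control against 52.7 and 46.0 in SUV-OE (log2 fold change 0.26, standard error 0.14, limma adjusted p = 0.364).
Of 23 genes of the E2F and RB families and the G1/S cyclins, 15 were lower and 8 higher, against 53.0% lower among all genes tested, and the median log2 fold change was -0.12. E2f1 had FPKM values of 40.5 and 29.0 in control against 25.0 and 27.7 in SUV-OE (log2 fold change -0.37, standard error 0.19, limma adjusted p = 0.349). Ccne1, the gene of cyclin E1, had 8.94 and 9.60 against 5.27 and 5.26 (log2 fold change -0.71, standard error 0.11, limma adjusted p = 0.0692). Over these 3 lists, of 31, 24 and 23 genes, 1 gene had an adjusted p under 0.05, a share close to the 1.29% of all genes tested. This gene, Ccnd2, which encodes cyclin D2, rose from 0.792 and 1.02 to 4.62 and 4.45 (log2 fold change 1.54, standard error 0.14, limma adjusted p = 0.0284).

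**Figure D5:**
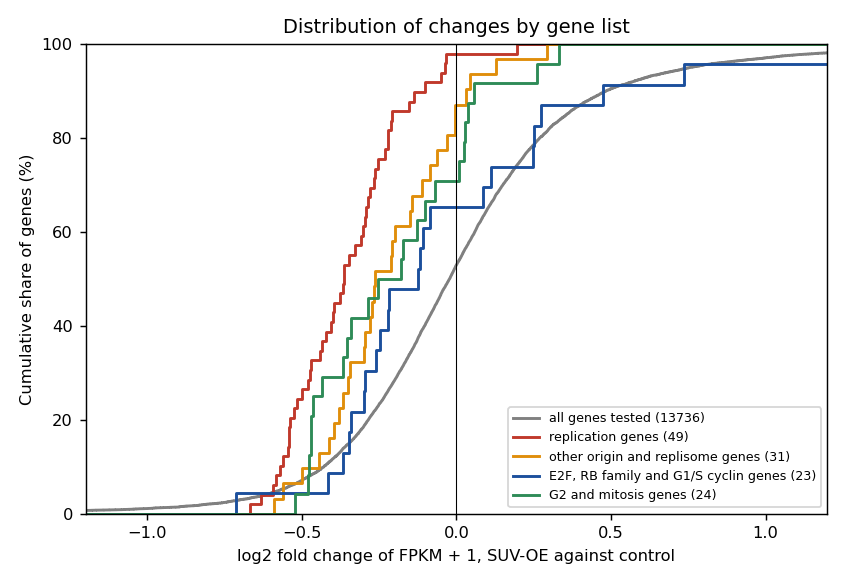
Cumulative share of genes (y axis, percent) by log2 fold change of FPKM + 1 (SUV-OE against control, x axis) for the replication genes, the 3 other cell cycle lists and all genes tested, with the number of genes in brackets. The curve of the 49 replication genes lies to the left, with a median of -0.36, against -0.26, -0.12 and -0.22 for the other lists and -0.02 for all genes.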

How the data were processed

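RNA-seq had been run on c-Kit+ AML cells, with 2 control and 2 SUV-OE libraries. According to the submitters' processing notes and the paper, the authors used CASAVA 1.8, aligned reads to mm10 with TopHat2 and computed FPKM with Cufflinks, and deposited 1 FPKM value per gene and library. The annotation release is not given in the sources used here.

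Groups were tested on log2(FPKM + 1) by limma 3.58.1 (R 4.3.3), with the group as the only term, an intensity trend, a mean FPKM of at least 0.5 and Benjamini-Hochberg adjustment over all 13736 genes tested. Gene names, positions, exon lengths and GC content came from GENCODE M21 (mm10), which held 23438 of the 23552 identifiers. Reads were recovered as FPKM times exon length divided by the value of 1 read in each library. They came out whole in all 4 libraries for 78.5% of genes and for 36 of the 49 members, within a tolerance of 0.01, and were rounded for the rest. Whether the deposited values are the Cufflinks estimates named above is therefore uncertain. They served for depth, which covers counting error only, and for limma-voom at a mean of at least 10 reads. TruSeq v2 libraries do not keep strand, and how reads in overlapping genes were counted is not given in the sources used here.

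The 49 genes, the other gene lists and the tests were chosen with earlier results of these data known. Every member is reported. In each complex the members with the lowest and highest log2 fold change, and the 10 members with the smallest p, are given with FPKM per library and test, as are 2 genes of each cell cycle list with the smallest p, Ccne1, E2f1, Mki67 and Kit, while the members of the marker lists are given as sums, beside Ltf and Pecam1, which passed the test. Mcm5, Cdc45, Orc1, Prim1, Pold1 and the other members given with values were added for their roles after their values were seen. So were Pold4, Pole3 and Pole4 of the other origin and replisome genes. Printed promoters are those of the 3 lowest and 2 highest members with a window, taking the window nearest to the GENCODE gene start. The test was checked on simulated data, in which genes varied independently and the seeded log2 fold changes were larger than those of any member. That check therefore does not show how the test performs on changes as small as these. The alternatives tried were other pseudocounts, filters, scalings and trends, limma-voom, other thresholds and leaving out each library. Figures were drawn with matplotlib 3.10.9.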

Additional observations from a re-analysis of the deposited data

How the results depend on the processing

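No paired analysis was possible because control and SUV-OE have a single number, 3, in common. Under the alternatives run, the number of replication genes lower in SUV-OE was 48 as reported and from 45 to 48 in the others, and no alternative gave a member an adjusted p under 0.05. Their median log2 fold change, -0.36, was -0.25 after quantile normalization, where 47 genes were lower and the cause was not tested, and ranged from -0.41 to -0.32 with a library left out. The number of members lower at an unadjusted p under 0.05, 21, ranged from 0 to 25 with a library left out. At an adjusted p under 0.1 there was 1 member. DEGs over all genes, 168, came to 772 with limma-voom, 342 at an adjusted p under 0.1 and 0 with no filter on low values, and ranged from 0 to 0 with a library left out, where a group of 1 library leaves fewer samples. Of the other cell cycle lists, 1 gene passed, 2 with limma-voom, 3 at an adjusted p under 0.1, 0 with no filter and from 0 to 0 with a library left out. Of 648 values of 54 single genes under alternatives, 11 changed sign. With limma-voom these were Orc4 (0.058), Mcm8 (0.036) and Pold3 (0.060), and after quantile normalization Pold3 (0.079). With a library left out, Orc4 reached from -0.20 to 0.12, Mcm8 from -0.29 to 0.19, Pold1 from -0.60 to 0.066, Pold3 from -0.11 to 0.040 and Rpa3 from -0.42 to 0.0015. The adjusted p of Suv39h1 was 0.109 with no filter and from 0.0975 to 0.186 with a library left out, at log2 fold changes from 2.51 to 2.62. With a library left out, the median moved by over 1.5 times in 6 of the 15 complexes: MCM2-7 and ORC as given above, CAF-1 (-0.39, -0.21 without control replicate 3), polymerase delta (-0.27, from -0.60 to -0.083), polymerase alpha-primase (-0.19, from -0.29 to -0.095) and the other MCM genes (-0.17, from -0.31 to -0.035). Depth limits Fen1 most, with 40 reads in SUV-OE replicate 3.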
